A study of Mus musculus with 16 samples.

Results

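The genes described are 46 genes of DNA replication and mitosis: 16 replication genes, 26 mitosis genes and 4 transcription factors that act on both. Each was taken as the array probe set that maps to that symbol alone, using the probe set of highest mean signal where a symbol had several. Of the 46 genes, 45 were measured in this way and all 45 lay above the dim level (a log2 signal of 3.74 on at least 2 arrays), out of 16258 genes and gene groups tested. Ccnb1, the cyclin of mitotic entry, was not measured in this way and enters only the promoter counts below.

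The arrays measured messenger RNA in cell suspensions of mouse fetal liver, the organ where red cells are made at midgestation, at embryonic days 12.5 (E12.5) and 14.5 (E14.5). At each stage the embryos had 1 of 4 genotypes: wild type (WT), an ERG transgene (ERG Tg), the knock-in allele of the short GATA1 isoform (WT/GATA1s), or transgene and knock-in together (ERG/GATA1s). Each of the 8 groups holds 2 arrays, 1 labelled female and 1 labelled male, and values given in pairs are in that order. ERG acts as a transcription factor in hematopoietic stem cells and megakaryocytes, GATA1 governs the red cell and megakaryocyte lineages, and its isoform GATA1s lacks the N-terminal stretch. The study asked how ERG acts with either form of GATA1. Limits of the model that could not be read were the transgene's promoter and species, the copies of the X-linked GATA1s allele, and whether single embryos or pools were hybridised: not given in the sources used here. The p-values therefore measure only the spread between these samples.

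Before DNA can be copied, Cdc6 and Cdt1 load the Mcm helicase onto origins of replication, and cyclin E with its kinase then helps to fire them, while ribonucleotide reductase, thymidylate synthase and thymidine kinase supply nucleotides. Mitosis is driven by Cdk1 with cyclins A and B, by Aurora and Polo kinases, and by the centromere and spindle proteins that segregate chromosomes, and it ends when Cdc20 and Ube2c direct the destruction of cyclins. Replication genes are known as targets of the E2F factors, and mitosis genes as targets of Mybl2 and Foxm1, which act on promoters that carry CHR elements and CCAAT boxes. Red cell precursors in the fetal liver divide repeatedly as they mature.

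The letters of those promoter elements were counted in both classes. Promoters of 300 bases, from RefSeq with coordinates of GRCm38.p6, matched 37 of the 46 genes, Mcm7 with 2 promoters. The letters of a CHR (TTTGAA or TTCGAA, on both strands) stood in 17 of 21 mitosis promoters (81.0%) and 2 of 14 replication promoters (14.3%), against 19.2% of all 32851 promoters. CCAAT, searched on both strands, stood in 19 of 21 mitosis promoters (90.5%) and 9 of 14 replication promoters (64.3%), against 37.4% of all. Both together stood in 17 of 21 mitosis promoters, against 7.52% of all. The letters of an E2F site (TTTCCCGC, TTTGGCGC, TTTCGCGC or TTTGCCGC, on both strands, overlapping matches counted apart) stood in 6 of 14 replication promoters (42.9%) and in 1 of 21 mitosis promoters (4.76%), that of Cdk1, against 2.26% of all. Replication promoters with them belonged to Cdc6, Cdt1, Mcm3, Mcm5, Mcm6 and Mcm7. Mitosis promoters without CHR letters belonged to Ccnb1, Birc5, Cenpe and Nusap1. A match of letters is a description and not a site that was shown to be bound, and these shares carry no test.

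The 5 windows below run from 200 bases before the start site to 30 after it, 5′ to 3′ on the gene's strand, with CHR, CCAAT and E2F letters in capitals. Mcm5 and Mcm6, helicase subunits, stand for the E2F type, and Cdk1 and Cenpf for the type with CHR and CCAAT letters. Ccne1, the replication gene with the lowest adjusted p in ERG/GATA1s, is shown because its window held none of the letters searched.
Mcm5, chr8:75109309-75109538, plus strand: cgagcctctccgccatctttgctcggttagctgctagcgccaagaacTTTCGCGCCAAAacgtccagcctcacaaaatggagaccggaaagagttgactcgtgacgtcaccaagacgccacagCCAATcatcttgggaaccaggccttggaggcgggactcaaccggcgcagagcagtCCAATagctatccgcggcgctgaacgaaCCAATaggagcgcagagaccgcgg
Mcm6, chr1:128359676-128359905, minus strand: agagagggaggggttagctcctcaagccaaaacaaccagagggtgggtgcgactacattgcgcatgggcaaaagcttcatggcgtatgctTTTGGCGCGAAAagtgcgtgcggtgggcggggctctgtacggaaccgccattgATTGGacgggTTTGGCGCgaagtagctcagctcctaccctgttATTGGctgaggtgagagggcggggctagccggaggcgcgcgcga
Cdk1, chr10:69352883-69353112, minus strand: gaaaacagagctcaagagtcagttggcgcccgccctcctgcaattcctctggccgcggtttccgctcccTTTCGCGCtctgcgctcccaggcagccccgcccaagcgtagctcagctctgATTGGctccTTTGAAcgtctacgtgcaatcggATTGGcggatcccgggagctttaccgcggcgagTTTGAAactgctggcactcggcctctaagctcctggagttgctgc
Cenpf, chr1:189688057-189688286, minus strand: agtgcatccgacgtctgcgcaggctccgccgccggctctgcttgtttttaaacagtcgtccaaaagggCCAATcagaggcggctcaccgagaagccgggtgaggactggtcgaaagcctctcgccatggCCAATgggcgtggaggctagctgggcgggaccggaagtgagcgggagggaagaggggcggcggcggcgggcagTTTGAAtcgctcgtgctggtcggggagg
Ccne1, chr7:38107461-38107690, minus strand: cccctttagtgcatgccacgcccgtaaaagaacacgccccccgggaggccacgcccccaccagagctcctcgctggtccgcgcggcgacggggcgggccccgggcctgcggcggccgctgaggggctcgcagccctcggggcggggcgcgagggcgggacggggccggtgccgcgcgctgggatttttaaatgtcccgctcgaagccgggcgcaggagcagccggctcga

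Some arrays stood apart or went against their labels, which bears on every result that follows. The levels of Xist and of 3 Y-linked genes (Eif2s3y, Kdm5d, Uty) opposed the labelled sex in 3 arrays, the E12.5 WT/GATA1s and ERG/GATA1s arrays labelled male and, of the E14.5 ERG/GATA1s pair, the one labelled female. In 2 more arrays labelled male, E12.5 WT and E14.5 ERG Tg, both kinds of marker were present, with Xist at 9.35 and 10.03 and the mean of the Y-linked genes at 4.95 and 5.27. The E12.5 ERG/GATA1s pair was the least alike of the 8 pairs, with an SD of 0.42 for the difference between its arrays over all genes tested, against 0.17 to 0.38 in the others. All 45 genes were lower in its male array (median −0.33, against −0.14 over all genes tested). In the E12.5 ERG Tg pair, 41 of 45 were lower in the male array (median −0.29, against 0.02).

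Each gene's deviation from its own mean over the 16 arrays, averaged over the genes of a class, gave 1 value per class and array on the log2 scale. Replication genes lay 0.14 and 0.21 above their mean in WT at E12.5, and 0.18 and 0.14 above it in WT at E14.5. Mitosis genes lay at 0.10 and −0.06 in the E12.5 WT arrays and at 0.54 and 0.21 in the E14.5 WT arrays. So the E14.5 WT array labelled female held the highest mitosis signal of all 16 arrays. In ERG/GATA1s, replication genes lay at 0.09 and −0.19 in the earlier pair and at −0.28 and −0.27 in the later one. Mitosis genes lay there at −0.11 and −0.56, then at −0.04 and −0.15. In WT/GATA1s at E12.5, mitosis genes lay at −0.32 and −0.28 while replication genes lay at 0.02 and 0.03. The replication value minus the mitosis value ran from −0.08 to 0.37 over the E12.5 arrays and from −0.36 to −0.03 over the E14.5 arrays. The 2 stages overlapped in that difference only between −0.08 and −0.03, through the E12.5 ERG Tg arrays and the E14.5 WT male and WT/GATA1s arrays.

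**Figure D1:**
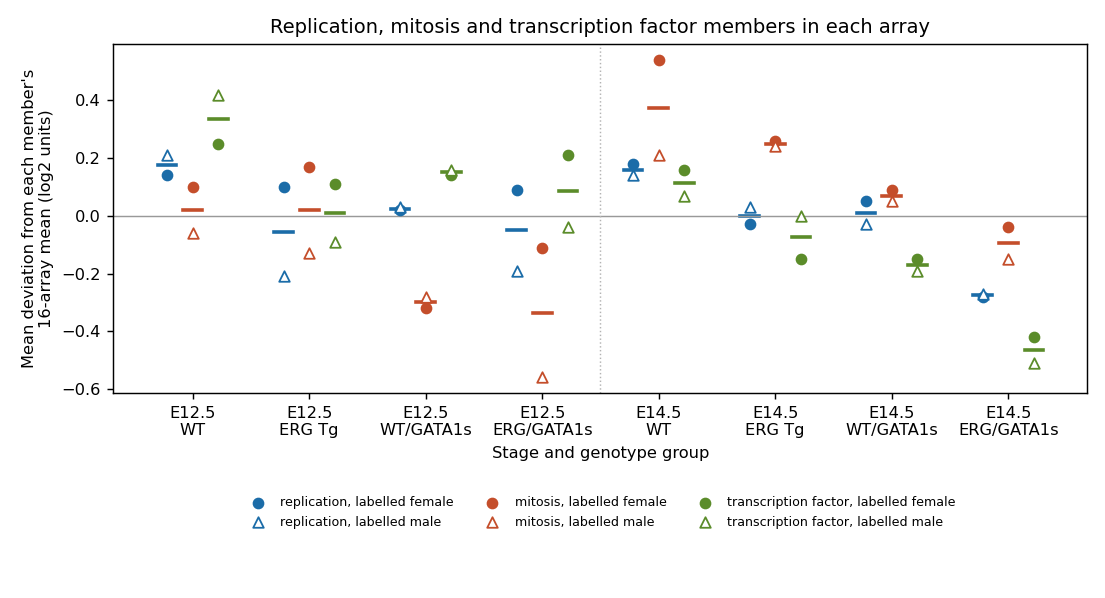
Mean deviation (y axis, log2 units) of the 16 replication, 25 mitosis and 4 transcription factor genes from each gene's 16-array mean, in the 8 stage and genotype groups (x axis); circles are arrays labelled female, triangles arrays labelled male and bars the mean of the pair. Mitosis genes peak at 0.54 in the E14.5 WT female array and are lowest at −0.56 in the E12.5 ERG/GATA1s male array, while replication and transcription factor genes are lowest in the E14.5 ERG/GATA1s arrays.

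In ERG/GATA1s, genes of both phases were lower than in WT. Averaged over both stages, 26 of the 45 genes fell, and none rose, at an adjusted p under 0.05 in limma's test, where 6.52% of all genes tested fell. The median log2 difference was −0.38 over the 45 genes, −0.31 over replication genes, −0.40 over mitosis genes and −0.43 over the 4 transcription factors, against −0.00 over all genes tested. By class, 6 of 16 replication genes, 17 of 25 mitosis genes and 3 of 4 transcription factors fell. Whether there were fewer dividing cells or less of these messengers per cell cannot be told apart in bulk samples. The 26 calls rested on particular arrays: without the 3 opposed arrays 0 passed, when 0.455% of all genes still fell, although 44 of 45 differences stayed negative with a median of −0.31. Leaving out 1 array at a time gave 8 to 36 calls, with 8 without the E12.5 WT male array or the E14.5 ERG/GATA1s female array, 11 without the E14.5 ERG/GATA1s male array, 12 without the E12.5 ERG/GATA1s male array and 15 without the E14.5 WT female array, and 6 of the 26 genes passed in every such fit.

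Markers of other cell types moved in the same comparison, over both stages. All 13 erythroid markers measured fell in ERG/GATA1s (median −0.73), as did 6 of 9 genes of late red cell maturation (median −0.61), while 9 of 11 megakaryocyte and platelet genes rose and 1, Ppbp, fell by 0.65 (median 1.04). Of 10 granulocyte and monocyte markers 4 rose, Mpo by 0.46, Prtn3 by 0.76, S100a8 by 1.01 and S100a9 by 0.96 (median 0.57). The mean erythroid deviation was 0.19 in both E12.5 WT arrays and 0.76 and 0.39 in the E14.5 WT arrays, against −0.02 and −0.40 in the E12.5 ERG/GATA1s pair and −0.41 and −0.74 in the E14.5 one. The megakaryocyte deviation ran from −0.74 to −0.12 in the 4 WT arrays and from 0.08 to 0.88 in the 4 ERG/GATA1s arrays. Of 10 hepatocyte markers 1 fell, and 0 of 8 macrophage markers passed. The mean hepatocyte deviation was −0.25 and −0.35 in E12.5 WT and −1.18 and −1.38 in E12.5 ERG/GATA1s. On a log2 scale no marker has a zero, and the part of these cell types in the results for replication and mitosis genes was not tested.

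Cyclin E1 showed the clearest fall of the replication genes. Ccne1, which activates Cdk2 at the start of replication, had a log2 signal of 9.79 and 10.03 in WT at E12.5 and 9.74 and 9.92 in WT at E14.5. It was 9.62 and 9.32 in E12.5 ERG/GATA1s and 8.78 and 8.90 in E14.5 ERG/GATA1s. It was 9.68 and 9.09 in E12.5 ERG Tg, 9.24 and 9.49 in E14.5 ERG Tg, 9.63 and 9.65 in E12.5 WT/GATA1s and 9.40 and 9.34 in E14.5 WT/GATA1s. All 12 arrays of the 3 other genotypes lay below the 4 WT arrays, and the E14.5 ERG/GATA1s arrays were the lowest. Ccne1 fell by 0.72 ± 0.13 (SE) in ERG/GATA1s, a 1.64-fold decrease (limma, adjusted p = 0.00419, 4 of 4 pairs matched for stage and sex label), and its adjusted p reached 0.0306 when single arrays were left out and 0.122 without the 3 opposed arrays. The other cyclin E gene, Ccne2, differed by −0.33 ± 0.12 and did not pass (limma, adjusted p = 0.101).

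Among the 9 genes of origin licensing and the helicase, Cdc6 and Mcm2 fell, and the other 7 had differences from −0.34 (Mcm3) to −0.10 (Mcm6). Cdc6, which helps to load the helicase, had a signal of 7.66 and 7.65 in the E12.5 WT arrays and 7.98 and 7.64 in the E14.5 WT arrays. It was 7.23 and 6.79 in E12.5 ERG/GATA1s and 7.15 in both E14.5 ERG/GATA1s arrays. The ERG Tg values were 7.51 and 6.74, then 7.45 and 7.51 at the later stage, and the WT/GATA1s values 7.33 and 7.40, then 7.60 and 7.50. The lowest single array was the E12.5 ERG Tg male array at 6.74, and no array of the other 3 genotypes reached the WT range. Cdc6 fell by 0.65 ± 0.13 (1.57-fold, limma, adjusted p = 0.00722, 4 of 4 pairs). Its adjusted p reached 0.0457 when single arrays were left out and 0.148 without the 3 opposed arrays. Mcm2 fell by 0.35 ± 0.10 (limma, adjusted p = 0.0418), a call lost in 12 of 16 fits without 1 array.

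Of the 5 clamp and nucleotide supply genes, Rrm2, Tyms and Rrm1 fell, by 0.50, 0.47 and 0.34. The calls of Tyms and Rrm1 were lost in 3 and 8 of 16 fits without 1 array. Rrm2, the small subunit of ribonucleotide reductase, had a signal of 9.76 and 9.79 in E12.5 WT and 9.82 and 9.47 in E12.5 ERG/GATA1s. It was 9.74 and 9.15 in E12.5 ERG Tg, the latter the lowest of the 16 arrays, and 9.71 and 9.74 in E12.5 WT/GATA1s. The E14.5 values were 10.32 and 10.30 for WT, 9.86 and 9.95 in ERG Tg, 10.25 and 10.13 in WT/GATA1s and 9.39 and 9.50 in ERG/GATA1s. So its ERG/GATA1s arrays overlapped WT at E12.5 and lay below every other E14.5 array at E14.5. The fall of 0.50 ± 0.12 over both stages (limma, adjusted p = 0.0166, 3 of 4 pairs) was lost without the E12.5 WT male, E12.5 ERG/GATA1s male or E14.5 ERG/GATA1s female array, up to an adjusted p of 0.0921, and reached 0.235 without the 3 opposed arrays. Pcna, the sliding clamp, differed by −0.23 ± 0.09 (limma, adjusted p = 0.126), and its second probe set gave the same difference, although a near-identical copy of the gene could share its signal. Tk1, thymidine kinase, differed by −0.04 ± 0.12 (limma, adjusted p = 0.878) but by −0.37 ± 0.13 (limma, adjusted p = 0.0934) in its second probe set, so its value depends on the probe set, and the sign of the first turned after a further quantile normalization.

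Of the 4 transcription factors, E2f8, Mybl2 and E2f1 fell in ERG/GATA1s. E2f8, a repressor of E2F targets, had a signal of 9.27 and 9.35 in E12.5 WT, 9.24 and 8.86 in E12.5 ERG/GATA1s, 9.11 and 8.94 in E14.5 WT and 8.38 and 8.21 in E14.5 ERG/GATA1s. The ERG Tg values were 9.12 and 8.81, then 8.72 and 8.79 at the later stage, and the WT/GATA1s values 9.33 in both, then 8.79 and 8.62. Within each stage its ERG/GATA1s arrays lay below WT, and at E14.5 they were the lowest of the 8. It fell by 0.49 ± 0.10 (1.41-fold, limma, adjusted p = 0.00677, 4 of 4 pairs), up to 0.0438 without single arrays and 0.0936 without the 3 opposed arrays. Mybl2 fell by 0.44 ± 0.10 and E2f1 by 0.42 ± 0.11, while Foxm1 differed by −0.31 ± 0.10 (limma, adjusted p = 0.0679).

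Mitosis genes of every role group included some that fell. Of the mitotic cyclins and Cdk1 with its phosphatase, 4 of 5 measured fell, Ccnb2, Ccna2, Cdc25c and Ccnf, and Cdk1 differed by −0.34 ± 0.11 (limma, adjusted p = 0.0596). Ccnb2, a B-type cyclin, had a signal of 10.95 and 10.89 in E12.5 WT, 10.92 and 10.74 in ERG Tg, 10.64 and 10.66 in WT/GATA1s and 10.72 and 10.45 in ERG/GATA1s. The E14.5 values were 10.87 and 10.88 for WT, 10.85 and 10.96 in ERG Tg, 10.43 and 10.65 in WT/GATA1s and 10.43 and 10.38 in ERG/GATA1s. All 8 arrays that carry GATA1s lay below all 8 that do not. Ccnb2 fell by 0.40 ± 0.10 in ERG/GATA1s (limma, adjusted p = 0.0176, 4 of 4 pairs), a call lost in 5 of 16 fits without 1 array and at 0.157 without the 3 opposed arrays.

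Among the 6 kinase and checkpoint genes, Bub1, Aurkb, Plk1 and Aurka fell, and Ttk and Bub1b did not pass. The calls of Bub1, Plk1 and Aurka were lost in 3, 11 and 9 of 16 fits without 1 array, and that of Aurka also after a further quantile normalization. Aurkb, the kinase of the chromosomal passenger complex, had a signal of 9.91 and 10.08 in E12.5 WT, 9.84 and 9.73 in ERG Tg, 9.38 and 9.46 in WT/GATA1s and 9.76 and 9.55 in ERG/GATA1s. The E14.5 values were 9.85 and 9.89 for WT, 9.80 and 9.78 in ERG Tg, 9.48 and 9.63 in WT/GATA1s and 9.43 and 9.25 in ERG/GATA1s. The arrays that carry GATA1s lay below those that do not, apart from the E12.5 ERG/GATA1s female array, which lay above the E12.5 ERG Tg male array. Aurkb fell by 0.43 ± 0.09 in ERG/GATA1s (limma, adjusted p = 0.0105, 4 of 4 pairs), up to 0.0596 without single arrays and 0.0774 without the 3 opposed arrays.

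Of the 5 centromere and passenger complex genes, Cenpe, Cenpf and Cenpa fell, and Birc5 and Cdca8, partners of Aurkb, differed by −0.19 ± 0.13 and −0.07 ± 0.11, the sign of Cdca8 turning after a further quantile normalization. Cenpe, a kinetochore motor, had the largest difference of the 45 genes, a fall of 0.76 ± 0.17 (1.69-fold, limma, adjusted p = 0.0109). That rank did not hold without the 3 opposed arrays, where Cenpe was at −0.50, Ccne1 at −0.61, Cdc6 at −0.54 and Cenpf at −0.53. Cenpf, a large kinetochore protein, had a signal of 7.41 and 6.97 in E12.5 WT, 6.83 and 6.41 in E12.5 ERG/GATA1s, 8.24 and 7.71 in E14.5 WT and 7.45 and 7.28 in E14.5 ERG/GATA1s. In ERG Tg it was 7.59 and 7.30, then 7.73 and 7.75 at the later stage, and in WT/GATA1s 6.76 and 6.93, then 7.84 and 7.49. Within each stage its ERG/GATA1s arrays lay below both WT arrays, and the E12.5 WT/GATA1s arrays did too. It fell by 0.59 ± 0.12 (1.51-fold, limma, adjusted p = 0.00623, 4 of 4 pairs), up to 0.0368 without single arrays and 0.0774 without the 3 opposed arrays.

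Nusap1, Kif20a and Kif11 fell among the 5 spindle genes, and Tpx2 and Kif23 differed by −0.33 each without passing. The calls of Kif20a and Kif11 were lost in 7 and 6 of 16 fits without 1 array, and that of Kif11 also after a further quantile normalization. Nusap1, which binds spindle microtubules, had a signal of 9.35 and 8.90 in E12.5 WT, 9.02 and 8.69 in E12.5 ERG/GATA1s, 9.92 and 9.52 in E14.5 WT and 9.01 and 8.86 in E14.5 ERG/GATA1s. In ERG Tg it was 9.53 and 9.12, then 9.64 and 9.55 at the later stage, and in WT/GATA1s 8.99 and 8.91, then 9.32 and 9.25. ERG/GATA1s overlapped WT at E12.5 and lay below all other arrays of its stage at E14.5. Nusap1 fell by 0.53 ± 0.10 (1.44-fold, limma, adjusted p = 0.00460, 4 of 4 pairs), up to 0.0309 without single arrays and 0.0846 without the 3 opposed arrays.

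Both chromosome structure genes fell, Mki67 and Top2a, the latter by 0.43 ± 0.11. Mki67, the proliferation antigen Ki-67 that coats mitotic chromosomes, had a signal of 11.08 and 10.71 in E12.5 WT, 10.57 and 10.39 in E12.5 ERG/GATA1s, 11.65 and 11.01 in E14.5 WT and 10.85 and 10.63 in E14.5 ERG/GATA1s. In ERG Tg it was 11.16 and 10.85, then 11.07 and 11.11 at the later stage, and in WT/GATA1s 10.72 and 10.65, then 11.03 and 10.92. Within each stage the ERG/GATA1s arrays were the lowest. It fell by 0.50 ± 0.11 (1.42-fold, limma, adjusted p = 0.0104, 4 of 4 pairs), up to 0.0476 without single arrays and 0.111 without the 3 opposed arrays. Of the exit genes Ube2c fell, by 0.38 ± 0.09 (limma, adjusted p = 0.0138, 3 of 4 pairs), and Cdc20 differed by −0.26 ± 0.11.

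**Figure D2:**
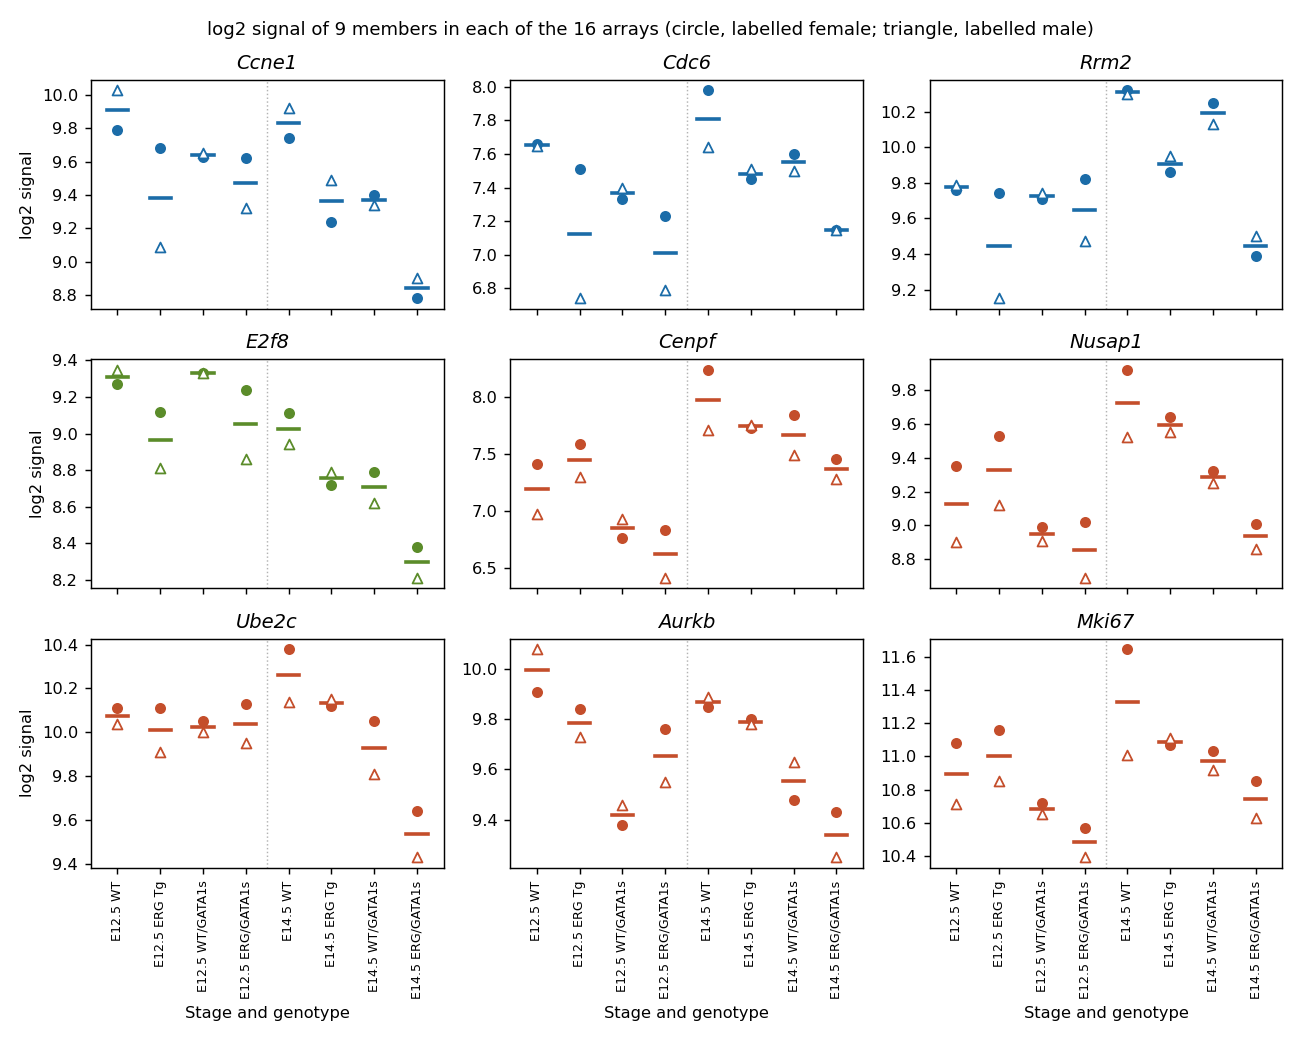
log2 signal (y axis, a separate scale in each panel) of 9 genes in each of the 16 arrays by stage and genotype (x axis); circles are arrays labelled female, triangles arrays labelled male and bars the mean of the pair. Ccne1, Rrm2, E2f8 and Ube2c are lowest or nearly lowest in both E14.5 ERG/GATA1s arrays, and Aurkb is low in the arrays that carry GATA1s.

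The falls passed at E14.5 and not at E12.5. At E14.5, 16 of 45 genes fell in ERG/GATA1s, where 4.69% of all genes tested fell, with a median of −0.41 over replication genes and −0.47 over mitosis genes. At E12.5, 0 of 45 passed, where 0.00615% of all genes tested passed in either direction. At an unadjusted p under 0.05 (limma), 16 of 45 passed there, against 15.8% of all genes. The E12.5 medians were −0.22 over replication genes and −0.33 over mitosis genes. Those E12.5 medians moved with single arrays: the replication median was −0.08 without the ERG/GATA1s male array and −0.09 without the WT male array of that stage, or without the 3 opposed arrays. The mitosis median was −0.53 without the ERG/GATA1s female array of that stage, and −0.20 without its male array or without the 3 opposed arrays. Whether the stages differ was tested by the stage by genotype terms, which passed for 0 of 45 genes, against 2.42% of all genes tested. At an unadjusted p under 0.05 (limma's F test), 6 of 45 passed, against 14.4% of all genes. The E14.5 count was 1 without the 3 opposed arrays, 2 without the ERG/GATA1s female array, 4 without the ERG/GATA1s male array and 5 without the WT female array of that stage. At E12.5, 16 passed when the ERG/GATA1s female array of that stage was left out, the only fit of 16 without 1 array with a count above 0.

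Ube2c, the ubiquitin-conjugating enzyme that builds chains on cyclins at mitotic exit, came nearest to a stage-dependent difference. Its signal was 10.11 and 10.04 in E12.5 WT and 10.13 and 9.95 in E12.5 ERG/GATA1s, so the groups overlapped. The E14.5 values were 10.38 and 10.14 for WT, 10.12 and 10.15 in ERG Tg, 10.05 and 9.81 in WT/GATA1s and 9.64 and 9.43 in ERG/GATA1s, the lowest 2 of the 16 arrays. The difference was −0.03 ± 0.12 at E12.5 and −0.73 ± 0.12 at E14.5 (limma, adjusted p = 0.00226 at E14.5, 2 of 2 pairs), and the F test of the stage by genotype terms gave an adjusted p of 0.116 (limma). It was the 1 gene whose E14.5 call passed in every fit without 1 array, up to 0.0363, and without the 3 opposed arrays (0.0418). Mybl2 was next in the F test (limma, adjusted p = 0.197), with 7.90 and 7.98 in E12.5 WT, 7.81 and 7.73 in E12.5 ERG/GATA1s, 8.23 and 8.15 in E14.5 WT and 7.50 and 7.47 in E14.5 ERG/GATA1s. In ERG Tg it was 7.74 and 7.25, then 7.92 and 8.03 at the later stage, and in WT/GATA1s 7.75 and 7.73, then 7.78 and 7.82. Its ERG/GATA1s arrays lay below WT at both stages. Also at E14.5, Ccne1 fell by 0.99 ± 0.19, Rrm2 by 0.87 ± 0.17 and Nusap1 by 0.79 ± 0.14, while Tk1 at 0.20 ± 0.17 and Cdca8 at 0.03 ± 0.16 were the 2 genes above WT, neither past the test. The second probe set of Tk1 gave −0.28 ± 0.19 there, and with the mean of all probe sets of a symbol 1 gene was above WT.

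In WT/GATA1s, the allele without the transgene, 1 of 45 genes fell, Aurkb, where 1.63% of all genes tested fell. Aurkb fell by 0.44 ± 0.09 over both stages (1.36-fold, limma, adjusted p = 0.0210, 4 of 4 pairs). It did not pass without the E12.5 WT male, E12.5 WT/GATA1s female, E14.5 WT female or E14.5 WT/GATA1s female array, up to 0.118, and at 0.0593 without the 3 opposed arrays. The median difference was −0.27 over the 45 genes, −0.14 over replication and −0.31 over mitosis genes, against 0.00 over all genes tested. At an unadjusted p under 0.05 (limma), 28 of 45 passed, against 18.2% of all genes. Tk1, at 0.11 ± 0.12, was the 1 gene with a positive difference, which was −0.18 ± 0.13 in its second probe set. In single stages 0 of 45 passed, against 1.33% of all genes at E12.5 and 1.07% at E14.5 in either direction. At an unadjusted p under 0.05 (limma), 8 and 17 of 45 passed, against 16.2% and 13.7% of all genes. Erythroid markers fell in 3 of 13 cases in the same comparison (median −0.41) and megakaryocyte genes rose in 10 of 11 (median 1.10). Of 10 hepatocyte markers 1 fell, and the mean hepatocyte deviation was −1.40 and −1.42 in E12.5 WT/GATA1s, against −0.25 and −0.35 in E12.5 WT. Of the granulocyte and monocyte markers 0 of 10 passed, with a mean deviation of 0.39 and 0.51 in E12.5 WT/GATA1s, against 0.15 and −0.17 in E12.5 WT. The part of these cell types was not tested.

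In ERG Tg, 0 of 45 genes passed over both stages, against 0.283% of all genes tested in either direction. At an unadjusted p under 0.05 (limma), 6 of 45 passed, against 7.69% of all genes. The lowest adjusted p was that of Ccne1, which differed by −0.50 ± 0.13 (limma, adjusted p = 0.177, 4 of 4 pairs), followed by Cdc6 at −0.43 ± 0.13 (0.270). The median difference was −0.16 over replication genes and −0.04 over mitosis genes. At E14.5 alone 0 of 45 passed, against 1.69% of all genes, and at E12.5 0 of 45, where 0% of all genes passed. At an unadjusted p under 0.05 (limma), 3 of 45 passed at E14.5, against 9.56% of all genes. At E12.5 it was 6 of 45, against 4.10%. The ERG Tg, WT/GATA1s and ERG/GATA1s comparisons share the WT arrays. Whether the difference with both alleles departs from the sum of the differences with each, on the log2 scale, was tested by the ERG by GATA1s interaction. It passed for 0 of 45 genes and 0.0123% of all genes. At an unadjusted p under 0.05 (limma), 0 of 45 passed too, against 4.39% of all genes.

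**Figure D3:**
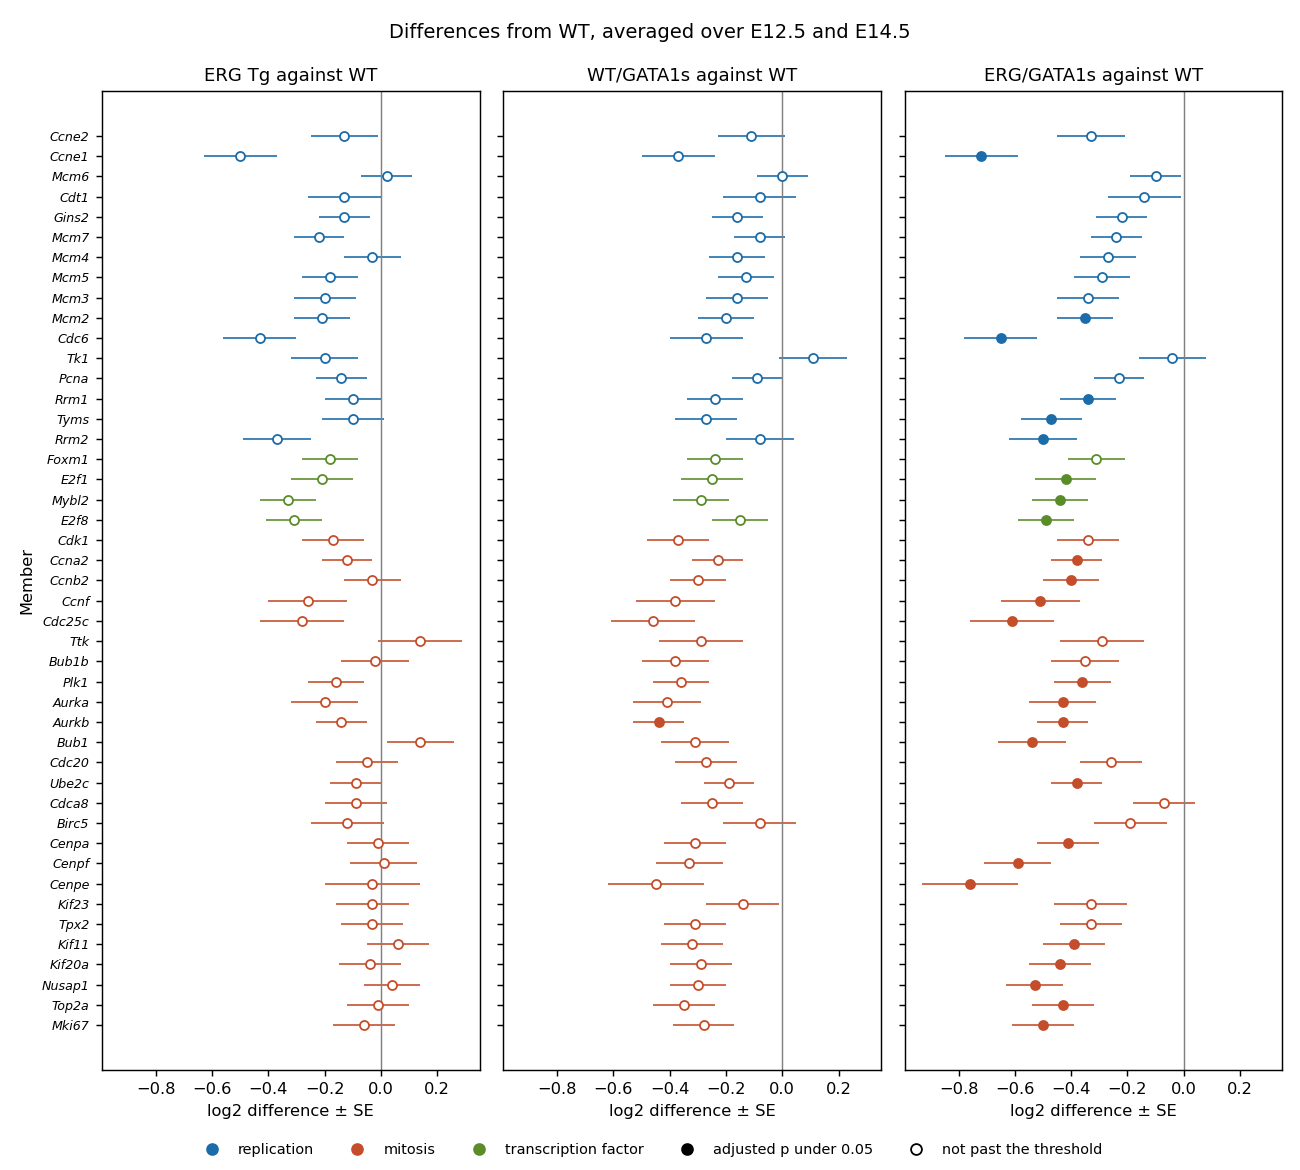
log2 difference from WT averaged over both stages (x axis, with its SE) for the 45 genes (y axis, by class and role) in ERG Tg, WT/GATA1s and ERG/GATA1s; filled points are past an adjusted p of 0.05 and open points are not. In the ERG/GATA1s panel 26 points are filled and all lie to the left of 0, in the WT/GATA1s panel only Aurkb is filled, and in the ERG Tg panel none is.

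The same comparison was made for genes of the same pathways outside the 45. In ERG/GATA1s over both stages, 29 of 48 other mitosis genes fell (median −0.45), where 6.52% of all genes tested fell. Kif18a, Sgo2a, Sgo1 and Prc1 had the lowest p, at falls of 0.87, 0.65, 0.70 and 0.65. Of 37 other replication genes 17 fell (median −0.38), among them Dut, which removes dUTP, by 0.63 and Orc2, an origin recognition subunit, by 0.61. Of 14 inhibitors and brakes of the cycle 4 fell and 1 rose. Cdkn2c, an inhibitor of the cyclin D kinases, fell by 1.21 ± 0.16 (limma, adjusted p = 0.000750), more than any of the 45 genes. Btg1, an antiproliferative gene, rose by 0.61 ± 0.11 (limma, adjusted p = 0.00461). Of 20 G1 cyclins, kinases and E2F or MYC factors 1 fell, E2f4, by 0.48 ± 0.10.

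Between the stages, more mitosis genes rose than fell, while replication genes moved in both directions. Averaged over the 4 genotypes, 14 of 25 mitosis genes were higher at E14.5 than at E12.5 and 1 was lower, with a median difference of 0.27. Of 16 replication genes 3 were higher and 6 lower (median −0.09), and of 4 transcription factors 3 were lower. Over the 45 genes that made 17 higher and 10 lower, where 29.0% of all genes tested were higher and 27.2% lower, with a median of −0.03. A further quantile normalization gave 14 higher and 15 lower. Without the 3 opposed arrays 14 were higher and 8 lower, and 22 of the 27 genes kept their call. The replication median lay near that of all genes, so the 6 lower and 3 higher are not read as a fall of that class. The difference between the classes carries no test.

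Cdc25c, the phosphatase that activates Cdk1, had the largest stage difference. Its signal over the 8 E12.5 arrays ran from 5.17 to 6.25 with a median of 5.86, and over the 8 E14.5 arrays from 6.30 to 7.39 with a median of 6.63. The stages did not overlap. It rose by 0.88 ± 0.11 (1.84-fold, limma, adjusted p = 1.48e-05, 8 of 8 pairs matched for genotype and sex label). Top2a, which untangles DNA before chromosomes separate, ran from 8.46 to 9.50 (median 8.99) at E12.5 and from 9.33 to 10.13 (median 9.54) at E14.5. The ranges overlapped through the E12.5 WT and ERG Tg female arrays, yet it rose in 8 of 8 pairs, by 0.62 ± 0.08 (1.53-fold, limma, adjusted p = 1.92e-05).

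Of the centromere and passenger complex genes, 4 of 5 were higher, with a median of 0.62. Birc5 (survivin) rose by 0.72 ± 0.09, Cenpf by 0.66 ± 0.08, Cenpe by 0.62 ± 0.12 and Cenpa, the centromeric histone, by 0.60 ± 0.08, while Cdca8 was at 0.06 ± 0.08, a sign that turned after a further quantile normalization. Of the kinases and checkpoint genes, Ttk rose by 0.79 ± 0.11, Bub1b by 0.45 ± 0.09 and Aurka by 0.27 ± 0.09 (lost in 1 of 16 fits without 1 array), and Aurkb and Bub1 were both at −0.07. Cdk1 rose by 0.48 ± 0.08, Ccnf by 0.32 ± 0.10 Mki67 by 0.27 ± 0.08 and Cdc20 by 0.21 ± 0.08, the last lost in 10 of 16 such fits. Ccna2 and Ccnb2 did not rise. Ccna2 fell by 0.17 ± 0.07 (limma, adjusted p = 0.0402, 7 of 8 pairs), a call lost in 11 of 16 fits without 1 array. Ccnb2 was at −0.06 ± 0.07. Nusap1 rose by 0.32 ± 0.07, and it was the 1 of 5 spindle genes that passed.

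By step, the replication counts were small and no test compared them, where 29.0% of all genes tested were higher and 27.2% lower. Of the 9 licensing and helicase genes 5 fell and none rose: Mcm4 by 0.34 ± 0.07, Cdt1 by 0.32 ± 0.09, Mcm5 by 0.32 ± 0.07, Mcm2 by 0.30 ± 0.07 and Gins2 by 0.27 ± 0.07 (limma, adjusted p from 0.00124 to 0.00840). Mcm3 and Mcm7 were at −0.09 and fell after a further quantile normalization, and Mcm6 was at 0.05 ± 0.06, a sign that turned in that setting. Among nucleotide supply genes 2 rose, Tyms and Rrm2, each by 0.32 ± 0.08. The 2 cyclins E moved apart: Ccne2 rose by 0.25 ± 0.09 and Ccne1 fell by 0.25 ± 0.09 (limma, adjusted p = 0.0228 and 0.0346), calls lost in 4 and 10 of 16 fits without 1 array.

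E2f1, the E2F activator of S-phase genes, had the largest fall with stage of the 45 genes. Its signal ran from 8.36 to 8.80 (median 8.48) at E12.5 and from 7.44 to 8.26 (median 7.89) at E14.5, without overlap. It fell by 0.64 ± 0.08 (1.55-fold, limma, adjusted p = 1.76e-05, 8 of 8 pairs). E2f8 ran from 8.81 to 9.35 (median 9.25) at E12.5 and from 8.21 to 9.11 (median 8.75) at E14.5, with the E12.5 ERG Tg male and ERG/GATA1s male arrays inside the E14.5 range. It fell by 0.47 ± 0.07 (1.38-fold, limma, adjusted p = 9.67e-05, 8 of 8 pairs). Foxm1 fell by 0.19 ± 0.07, a call lost in 12 of 16 fits without 1 array, and Mybl2 was at 0.13 ± 0.07, a sign that turned after a further quantile normalization.

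**Figure D4:**
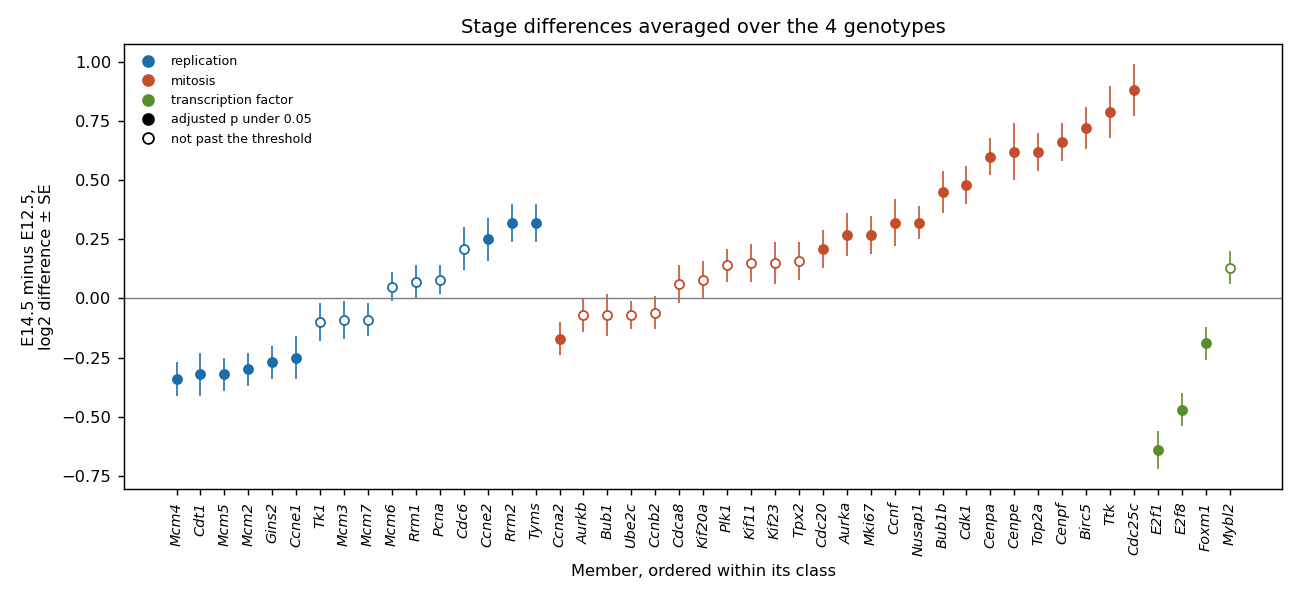
log2 difference between E14.5 and E12.5 (y axis, with its SE), averaged over the 4 genotypes, for each of the 45 genes (x axis, ordered within its class); filled points are past an adjusted p of 0.05 and open points are not. Mitosis genes reach 0.88 (Cdc25c), replication genes run from −0.34 (Mcm4) to 0.32, and E2f1 is lowest at −0.64.

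Within single genotypes, 9 mitosis genes were higher at E14.5 in WT, 5 in ERG Tg, 9 in WT/GATA1s and 6 in ERG/GATA1s. The shares of all genes tested that were higher in those comparisons were 11.4%, 12.7%, 13.8% and 14.0%. Replication genes that were lower numbered 0 in WT, 1 (Mcm4) in ERG Tg, 0 in WT/GATA1s and 6 in ERG/GATA1s, where 6.75%, 4.88%, 8.67% and 7.89% of all genes tested were lower. In ERG/GATA1s these 6 were Gins2, Mcm2, Mcm4, Mcm5, Ccne1 and Cdt1, with falls from 0.45 to 0.63. Whether that differs between genotypes was not shown, since the stage by genotype terms passed for 0 of 45 genes. That count of 6 became 0 without the E14.5 ERG/GATA1s male array or without the 3 opposed arrays, and 1 without the E12.5 or the E14.5 ERG/GATA1s female array. The 1 gene in ERG Tg was lost without either E12.5 ERG Tg array or the E14.5 ERG Tg female array. Of the mitosis counts, that in WT became 5 without the E12.5 female array and 0 without the E12.5 male or E14.5 female array of that genotype. The ERG Tg count became 3 without the E12.5 female array and 1 without any of the other 3. The WT/GATA1s count became 0 without the E12.5 female and 3 without the E14.5 male array. The ERG/GATA1s count became 10 without the E12.5 female array, and 0 without either male array or without the 3 opposed arrays.

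The tissue changed between the stages too. The counts below stand beside 29.0% of all genes tested that were higher at E14.5 and 27.2% that were lower. Hepatocyte markers were higher at E14.5 in 10 of 10 cases (median 1.88) and macrophage markers in 8 of 8 (median 1.02). Of 10 stem and progenitor genes 7 were lower (median −0.39), while Hlf and Cd48 were higher, by 0.38 and 0.24. Erythroid markers were higher in 5 of 13 cases (median 0.14) and none was lower. Late red cell maturation genes ran from −0.48 (Add2) to 0.88 (Xpo7), and megakaryocyte and platelet genes from −0.81 (Mmrn1) to 1.10 (Ppbp). Granulocyte and monocyte markers ran from −1.52 (Ngp) to 1.66 (Ctsg), and endothelial and stellate markers from −0.22 (Col1a1) to 2.16 (Dcn). The mean hepatocyte deviation ran from −1.42 to −0.13 over the E12.5 arrays and from 0.35 to 1.26 over the E14.5 arrays. The part of these cells in the stage differences was not tested. Other genes of the same pathways were higher at E14.5 in 38 of 48 mitosis and 20 of 37 replication cases, with medians of 0.43 and 0.24. None of the 48 passed as lower, and Cdkn3, Cdc25b, Ncapg and Pbk had the lowest p, with rises of 0.91, 0.79, 0.83 and 0.76. Among the other replication genes, Rfc3 of the clamp loader rose by 0.86 and Pold1, a polymerase subunit, fell by 0.56. The rest of those that passed as lower were Chaf1b at −0.42, Timeless at −0.20 and Prim2 at −0.20. So more genes of this wider replication list rose than fell. Of the replication genes described above 3 were higher and 6 lower, with a median of −0.09, near that of all genes. No test compared these lists.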

How the data were processed

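Total RNA of 16 fetal liver suspensions was biotin-labelled and hybridised to whole-transcript arrays, per the labels' protocols. The authors deposited log2 probe set signals, and the submitters' processing notes name RMA, with no version given, as the method that corrects background, normalizes and summarises. The SD of all values on an array was 2.03 in 1 array and 2.13 to 2.25 in the others. Of 28270 probe sets, 21780 map to 1 gene symbol, 1617 to several and 4873 to none. For a symbol with several probe sets the one with the highest mean was used. The test kept those that exceeded 3.74, the 30th percentile of the table, on 2 or more arrays, 15742 with 1 symbol and 516 with several.

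All 16 arrays were fitted with limma 3.58.1 in R 4.3.3, with 1 mean per group and labelled sex as covariate (7 residual degrees of freedom, eBayes, two-sided, Benjamini-Hochberg adjustment over all 16258, threshold 0.05). The median residual SD was 0.16, and the number of arrays limits the precision. A comparison over both stages is the mean of its differences at E12.5 and E14.5. Class medians and counts carry no test. Promoters came from RefSeq (GRCm38.p6). The fit was tested on simulated data.

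The members, classes, lists and tests were chosen with earlier results of these data known. Values in every array were given for the member of lowest p in each role group in ERG/GATA1s against WT, for members past the threshold in WT/GATA1s or ERG Tg, and for the 2 of lowest p in the stage by genotype test. For the 2 of lowest p in each direction of the stage comparison, the lowest, median and highest of the 8 arrays of each stage were given. Alternatives covered the filter, normalization, sex term, array weights, moderation, probe sets, class assignment and arrays left out. Scanner files were not used here.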

Additional observations from a re-analysis of the deposited data

Results flagged for a closer look

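The stage by genotype test passed for 3 genes of the inhibitor and G1 lists, none of them among the 45 described. Cdkn2d, an inhibitor of the cyclin D kinases, had a signal of 6.53 and 6.51 in E12.5 WT, 7.07 and 7.13 in E12.5 WT/GATA1s, 7.35 and 7.24 in E14.5 WT and 7.03 and 7.12 in E14.5 WT/GATA1s (limma's F test, adjusted p = 0.0217). It was above WT at E12.5 and below it at E14.5. The adjusted p was at or above the threshold in 6 of 16 fits without 1 array, up to 0.0813, and 0.207 without the 3 arrays with opposed sex markers.

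Ccnd1, cyclin D1, was at 7.70 and 7.92 in E12.5 WT, 6.95 and 7.23 in E12.5 WT/GATA1s, 7.38 and 8.51 in E14.5 WT and 8.70 and 8.67 in E14.5 WT/GATA1s (limma's F test, adjusted p = 0.0455). That call was lost in 13 of 16 such fits, up to 0.175, and was 0.351 without the 3 opposed arrays. E2f7, a relative of E2f8 with repressor activity, was at 7.15 and 7.20 in E12.5 WT, 7.57 and 7.55 in E12.5 WT/GATA1s, 7.71 and 7.47 in E14.5 WT and 7.24 and 7.28 in E14.5 WT/GATA1s (limma's F test, adjusted p = 0.0430). It was lost in 12 of 16 fits, up to 0.164, and was 0.271 without the 3 opposed arrays.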

How the results depend on the processing

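The replication and mitosis medians of ERG/GATA1s over both stages and at E14.5 and of the stage comparison moved by less than the spread within groups (SD 0.11 and 0.17), but the E12.5 medians of ERG/GATA1s did not, at −0.31 to −0.08 and −0.53 to −0.20 without single arrays. No called difference changed sign after quantile normalization or median centring. Quantile normalization turned the uncalled differences of Tk1 and Cdca8 in ERG/GATA1s, Mcm6 in WT/GATA1s, Cenpa in ERG Tg, and Mcm6, Rrm1, Mybl2, Cdca8 and Kif20a with stage. The stage counts of 14 mitosis genes higher and of 3 replication genes higher and 6 lower stayed within 1.5 times under all alternatives, with 12 to 18, 2 to 4 and 5 to 6 when single arrays were left out. The 26 calls in ERG/GATA1s became 12 with a Y-linked covariate, 6 with arrayWeights, 11 with only the arrays compared and 0 without the 3 opposed arrays (8 to 36 without single arrays). The 16 at E14.5 became 10 without a sex term, 8 with the Y-linked covariate, 0 with only the arrays compared and 1 without the 3 (2 to 20). The 0 at E12.5 became 1 with only the arrays compared (0 to 16). The 1 call in WT/GATA1s became 4 after quantile normalization, 2 with arrayWeights, 3 with trend and robust moderation, 2 with only the arrays compared and 0 without the 3 (0 to 4). At E12.5 its 0 became 1 under the first 3 of these (0 to 1), and at E14.5 it ran from 0 to 1. ERG Tg ran from 0 to 2 over both stages and the stage by genotype terms from 0 to 1. The 1 mitosis gene lower with stage, Ccna2, became 4 genes after quantile normalization and 0 after median centring, without a sex term, with the Y-linked covariate, with arrayWeights or without the 3 (0 to 1). The cause of these changes was not tested, beyond the fewer arrays in some fits. With 2 arrays a group, small differences at single stages could not be shown.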
